A study of Mus musculus with 4 samples.

Results

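Interferon-stimulated genes are the genes that a cell switches on when it senses interferon, and 40 of them were followed in the crypts of the mouse small intestine. They were taken by name: 4 transcription factors (Irf1, Irf7, Irf9 and Stat2), 2 genes of the ISG15 modifier system, 4 RNA or nucleic acid sensors, 6 oligoadenylate synthetase genes, 4 IFIT genes, 11 further antiviral effectors, 5 guanylate-binding proteins and 4 immunity-related GTPases. All 40 were present in both deposited tables, out of 24182 genes that the tables share, and all 40 carried an adjusted p in both. The study measured crypt RNA from male C57BL/6J mice of 9 weeks in 4 groups: fed without tetracycline, fasted for 24 hours without tetracycline, fed after 21 days of tetracycline, and fasted for 24 hours after 21 days of tetracycline. Its stated aim concerned the depletion of what the labels abbreviate as AKK by this antibiotic, in fed against fasted mice. No genetic modification is named in any group. The labels list 1 sample per group, and how many mice it came from is not given.

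As background, interferons of type I and type III act largely through the interferon-stimulated response element (ISRE), which a complex with STAT2 and IRF9 binds, while interferon gamma acts largely through gamma-activated sites (GAS). The resulting genes encode sensors of foreign nucleic acid, enzymes that degrade or block viral RNA and its translation, and GTPases that attack vacuoles holding microbes. In the gut, epithelial cells respond mainly to type III interferon, microbes contribute to a steady low tone of these genes, and lymphocytes in the epithelium are a source of interferon gamma.

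The material was 2 tables of the authors' own comparisons, fasted against fed, 1 without and 1 with tetracycline. A normalized count is a gene's count in a library divided by that library's size factor. The whole counts behind the deposited means could be recovered for all 40 genes and showed 4 libraries per table, 2 fasted and 2 fed. Which of them belongs to which labelled sample is unknown, so they are given as single values, and nothing says whether they came from separate mice. Library 1 of a side means the deeper of its 2 libraries by size factor, so that a number does not pair libraries across sides. Size factors spanned a range of 1.17 times without and 1.75 times with tetracycline, where the shallowest library was fasted library 2. A log2 change is the authors' fasted over fed value, and its direction was taken from the wording of the tables' names, since no column states it.

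Epithelial markers were abundant, with mean normalized counts of 83703 without and 68783 with tetracycline for Epcam, and of 126795 and 122164 for Vil1. Markers of other cell types were present too. In 5 T cell and intraepithelial lymphocyte markers the summed normalized counts were 6054 and 11747 in the fasted and 13007 and 15555 in the fed libraries without tetracycline, and 19157 and 3371 in the fasted and 58287 and 15416 in the fed libraries with it. For 6 B and plasma cell markers the sums were 549 and 1266 in the fasted and 2673 and 5159.9 in the fed libraries without and 2258 and 135 in the fasted and 6542 and 1575 in the fed libraries with tetracycline. The fed tetracycline library 1 was thus the highest of all 8 in both lists, and the fasted tetracycline library 2 the lowest. All 6 B and plasma cell markers fell with fasting without tetracycline in the authors' deposited table (adjusted p under 0.05), against 1.22% of all genes. None of the 7 T cell markers listed was called in either table, against 2.27% of all genes without and 0.6% with tetracycline. At an unadjusted p under 0.05, 4 of those 7 were lower without and 6 with tetracycline, against 6.21% and 3.06% of all genes. In bulk RNA, fewer cells of a type and less RNA per cell cannot be told apart. How much these cells contribute to the values below was not tested.

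Promoters were read for the 30 of the 40 genes that the RefSeq table holds (assembly GRCm38.p6, 250 bases before to 50 bases after the start). The core of the ISRE was searched as GAAA, 2 bases of any kind and GAAA again, on either strand. It stood in a window of 21 of 30 genes (70.0%), against 3.99% of all 27025 genes with a window. A gene with several windows counted when any of them held the letters. The GAS letters TTCNNNGAA, which read the same on both strands, stood in 11 of 30 (36.7%, against 9.55%), and 8 of 30 held both (26.7%, against 0.614%). All 4 guanylate-binding proteins and all 3 immunity-related GTPases with a window held the ISRE letters. Ifi44, Irf7, Irf9, Oasl1, Oasl2 and Xaf1 held neither motif in any window. The Isg15 and Rsad2 windows are shown whole because these genes had the lowest adjusted p with and without tetracycline. In Isg15, 3 overlapping copies of the ISRE core form 1 run, and in Rsad2 1 copy lies on the other strand. Capitals mark the motif letters, on the strand of the gene.
Isg15 (chr4:156200769-156201068, minus strand): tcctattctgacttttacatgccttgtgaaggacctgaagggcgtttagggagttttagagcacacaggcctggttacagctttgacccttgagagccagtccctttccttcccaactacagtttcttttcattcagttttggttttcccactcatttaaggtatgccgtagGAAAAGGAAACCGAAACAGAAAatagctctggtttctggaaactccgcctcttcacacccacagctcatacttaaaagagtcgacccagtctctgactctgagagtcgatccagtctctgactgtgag
Rsad2 (chr12:26456403-26456702, minus strand): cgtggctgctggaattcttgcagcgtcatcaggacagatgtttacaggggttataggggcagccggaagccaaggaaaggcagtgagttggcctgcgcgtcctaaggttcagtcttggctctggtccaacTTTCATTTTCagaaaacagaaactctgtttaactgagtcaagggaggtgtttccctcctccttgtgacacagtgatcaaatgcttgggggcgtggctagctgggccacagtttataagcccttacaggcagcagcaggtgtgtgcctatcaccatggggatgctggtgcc

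Shorter stretches of 80 bases show how families share their elements. Those of Ifit3 and Ifit3b were identical at 80 of 80 bases, Oas1a and Oas1g at 79, and Igtp and Irgm2 at 78. These stretches were chosen around the letters, and over the whole windows, aligned without gaps, the same pairs were identical at 75% of 268, 69.5% of 298 and 68.1% of 270 bases. Oas1a alone of its pair holds the GAS letters, outside the stretch shown. Gbp7, Igtp and Irgm2 carry the letters of both kinds of site, close together in Igtp and Irgm2 and farther apart in Gbp7, and Irf1, a gene that interferon gamma switches on, carried the GAS letters alone. Capitals mark ISRE or GAS letters.
Oas1a (chr5:120907498-120907577, minus strand): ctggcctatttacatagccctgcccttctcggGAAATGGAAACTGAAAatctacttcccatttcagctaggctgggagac
Oas1g (chr5:120887584-120887663, minus strand): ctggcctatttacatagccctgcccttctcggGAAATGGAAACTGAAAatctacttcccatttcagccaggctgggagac
Ifit3 (chr19:34583355-34583434, plus strand): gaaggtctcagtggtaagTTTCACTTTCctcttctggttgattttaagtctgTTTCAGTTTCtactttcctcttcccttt
Ifit3b (chr19:34607751-34607830, plus strand): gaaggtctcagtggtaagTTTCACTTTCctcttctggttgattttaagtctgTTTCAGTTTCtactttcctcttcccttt
Ifit1 (chr19:34640759-34640838, plus strand): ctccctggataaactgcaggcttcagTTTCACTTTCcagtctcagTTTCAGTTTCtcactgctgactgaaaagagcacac
Gbp2 (chr3:142620569-142620648, plus strand): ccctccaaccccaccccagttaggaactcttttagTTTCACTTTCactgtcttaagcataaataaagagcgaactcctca
Gbp7 (chr3:142530221-142530300, plus strand): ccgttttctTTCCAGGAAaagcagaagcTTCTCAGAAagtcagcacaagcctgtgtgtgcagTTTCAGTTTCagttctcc
Igtp (chr11:58199487-58199566, plus strand): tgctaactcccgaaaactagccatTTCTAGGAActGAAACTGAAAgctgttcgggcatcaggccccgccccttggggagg
Irgm2 (chr11:58214878-58214957, plus strand): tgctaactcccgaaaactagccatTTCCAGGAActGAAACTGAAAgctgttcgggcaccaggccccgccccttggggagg
Irf1 (chr11:53769888-53769967, plus strand): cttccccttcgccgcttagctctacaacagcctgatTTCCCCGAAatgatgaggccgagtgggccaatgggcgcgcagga

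Many of these genes lie in clusters. The mouse genome annotation used here (GENCODE, the same assembly) puts the 4 Ifit genes together on chromosome 19 between Ifit2 at chr19:34550694-34576419 and Ifit1 at chr19:34640871-34650009. All 6 Oas and Oasl genes lie on chromosome 5, with Oasl2 at chr5:114896936-114912234 and Oas1a at chr5:120896256-120907521, and 4 of the 5 Gbp genes lie on chromosome 3. Isg15 is at chr4:156199424-156200818, Rsad2 at chr12:26442746-26456452 and Zbp1 at chr2:173206612-173218923. Because the library kit does not keep the strand, overlapping genes are uncertain. Exons of 6 members share bases with another protein-coding gene, most of all Gbp6, with 29% of its exon bases (162 bases are shared between Igtp and Irgm2). Members of one family, such as Ifit3 and Ifit3b or Oas1a and Oas1g, may also share reads, which was not tested.

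Every member was detected. Per kilobase of annotated exon, the most abundant was Ifi35, a protein that binds other interferon-induced factors, with means of 2631 normalized counts per kilobase without and 2034 with tetracycline. It was followed by Irf1 (1748 and 1689.5), Ifitm3 (1309.8 and 1069), which hinders the entry of viruses through membranes, and Irf7 (998 and 883). At the other end were Ifi44 (6.71 and 4.84) and Iigp1 (1.4 and 3.52). The classical markers of a strong response, Mx1 and Mx2, were low, at 17.4 and 12.6 per kilobase without tetracycline.

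The first comparison asks what fasting did to these genes without tetracycline. None of the 40 was called at an adjusted p under 0.05 in the authors' deposited table (DESeq2's Wald test), against 2.27% of all 18100 genes tested (1.22% lower and 1.06% higher). At an unadjusted p under 0.05, 6 of 40 were lower in fasted mice (Rsad2, Bst2, Ifit3b, Gbp2, Oasl1 and Oas1a) and 0 higher, against 6.21% and 4.59% of all genes (10.8% in either direction). The median log2 change was -0.20, beside 0.01 over all genes tested, and 31 of 40 were below 0, against 49.5%. Only Iigp1, Rsad2 and Ifit3b were lower by at least 1, 3 of 40 against 9.48% of genes with a mean of at least 1. In 15 of 40 genes both fasted libraries lay below both fed ones (23.1% of all genes), and in 0 both lay above (22.2%).

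That table rests on fasted libraries that disagreed. Summed over the 40 genes, normalized counts were 55893 and 28911 in the fasted and 43331 and 50803 in the fed libraries, so fasted library 1 was the highest of the 4 and fasted library 2 the lowest. The log2 ratio of the summed counts, fasted over fed, was -0.15 with both fasted libraries, 0.25 without fasted library 2 and -0.70 without fasted library 1. The number of genes below 0 went from 31 to 17 without fasted library 2 and to 39 without fasted library 1. The number lower by at least 1 went from 3 to 10 without fasted library 1 and to 5 without fed library 1. In 31 of 40 genes the gap between the 2 fasted libraries was larger than the gap between the mean of the fasted and that of the fed.

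With tetracycline, again none of the 40 passed the test in the authors' deposited table, where 0.6% of 17993 genes were called (0.267% lower and 0.333% higher). Here, however, every one of the 40 log2 changes was below 0 (51.8% of all genes), with a median of -1.09 beside -0.02 over all genes tested. At an unadjusted p under 0.05, 17 of 40 were lower and 0 higher, against 3.06% and 2.27% of all genes (5.34% in either direction). Those 17 were Isg15, Oasl2, Zbp1, Trim30a, Xaf1, Oasl1, Gbp3, Irgm2, Gbp6, Oas1a, Gbp2, Rtp4, Oas3, Parp14, Igtp, Gbp7 and Ifit3. A log2 change of at most -1 was seen in 22 of 40 genes, against 14.0% of genes with a mean of at least 1. Both fasted libraries lay below both fed ones in 30 of 40 genes (16.0% of all genes) and above in 0 (15.7%). These genes vary together across libraries, so a count over them is not a count of independent observations.

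The summed counts of the 40 genes with tetracycline were 25321 and 35328 in the fasted and 64661 and 45869.5 in the fed libraries, with no overlap between the sides. The log2 ratio was -0.87, and it ranged from -1.13 to -0.60 when each library was left out in turn. Between 39 and 40 genes stayed below 0 in those 4 settings. The count lower by at least 1 was less steady. It went from 22 to 7 without fed library 1, the library with the highest lymphocyte and myeloid marker sums, and lay between 17 and 28 without each of the others. The gap between the 2 fasted libraries exceeded that between the means of the sides in 19 of 40 genes here, and the gap between the 2 fed libraries did so in 5, against 16 without tetracycline. The standard errors had a median of 0.55 over the 40 genes with and 0.40 without tetracycline.

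**Figure D1:**
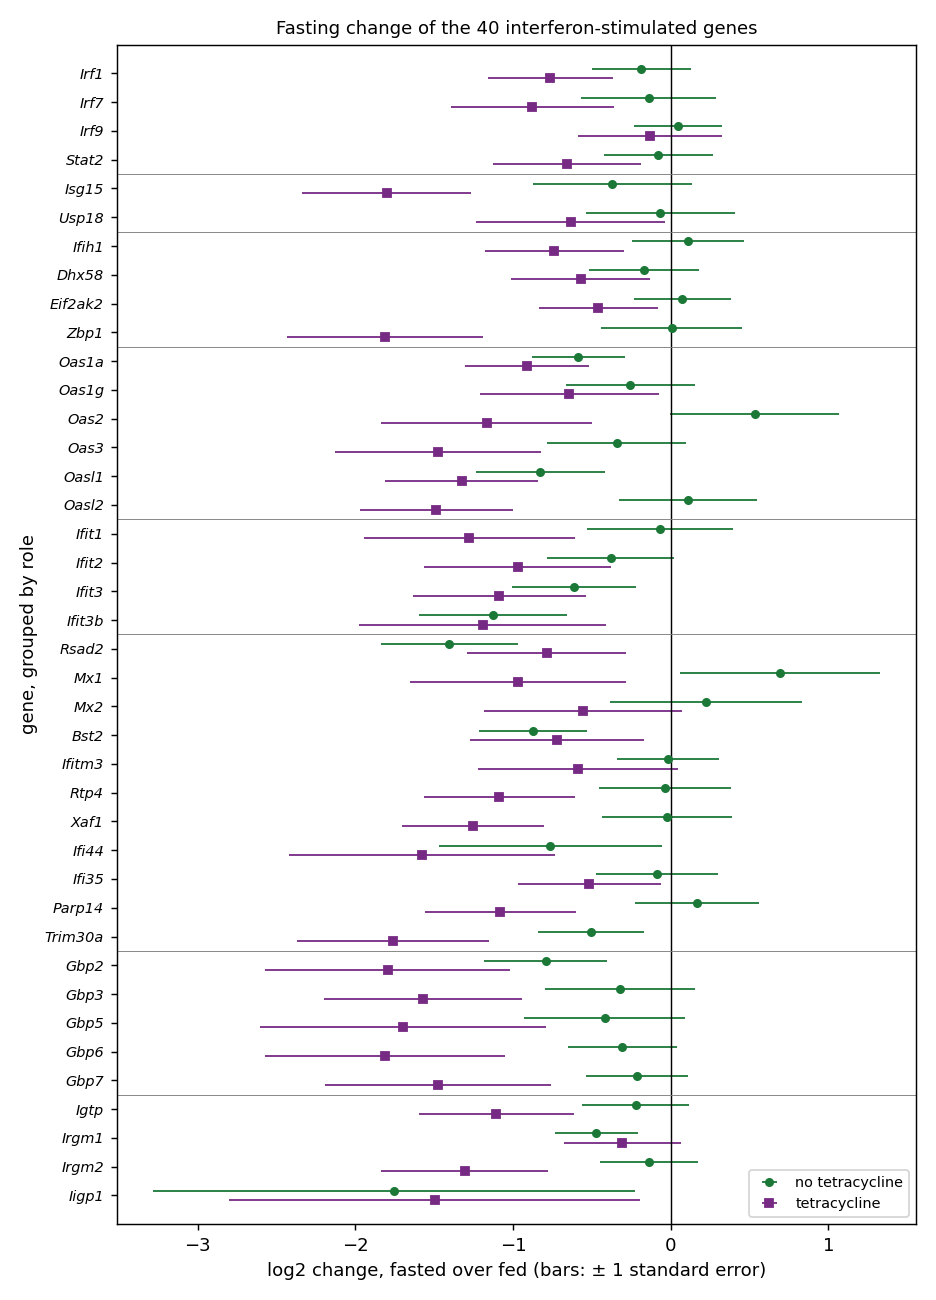
Log2 change, fasted over fed, of each of the 40 genes (y axis, grouped by role) in the authors' deposited tables, with bars of 1 standard error, without (circles) and with (squares) tetracycline. All 40 squares lie left of 0, and 31 of the 40 circles do, while 0 genes passed an adjusted p of 0.05 in either table.

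**Figure D2:**
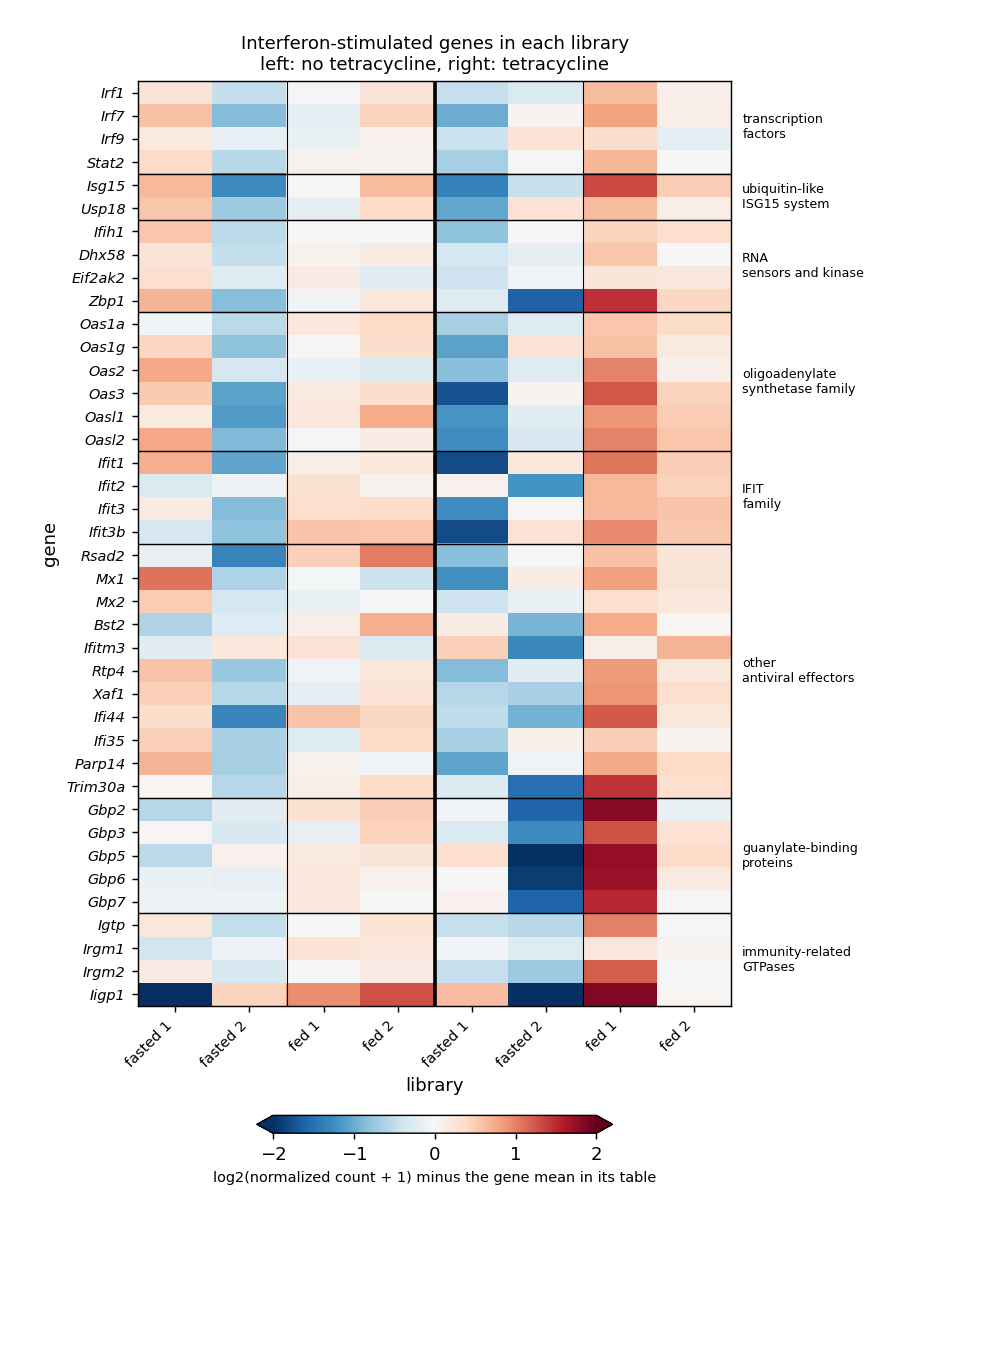
Log2(normalized count + 1) of the 40 genes (rows) in the 8 libraries (columns), each minus the gene's mean over the 4 libraries of its table, with the table without tetracycline on the left. Fasted library 2 is low for most genes without tetracycline, and with tetracycline fasted library 1 is lowest for the Oas genes and for Ifit1, Ifit3 and Ifit3b, and fasted library 2 for Ifit2 and the Gbp genes.

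Among the transcription factors, Irf1, which is induced chiefly by interferon gamma, had 8115 and 4888 in the fasted and 6668 and 8122 in the fed libraries without tetracycline. With tetracycline it stood at 4677 and 5287 fasted against 9986 and 6920.1 fed, with both fasted values below both fed ones and a log2 change of -0.76 (SE 0.40). Irf7, the factor that amplifies type I interferon production, had 5252 and 1922 in the fasted and 3066 and 4840.4 in the fed libraries without and 1537 and 3166 fasted against 5294 and 3345 fed with tetracycline. The log2 changes of Irf7 were -0.14 (SE 0.43) and -0.88 (SE 0.52). Irf9 and Stat2, parts of the complex that binds the ISRE, showed no separation of the sides in either table. For Irf9 the values were 2157 and 1677 in the fasted and 1717 and 1997 in the fed libraries without and 1470.4 and 2397 fasted against 2509 and 1720.3 fed with tetracycline, with changes of 0.05 (SE 0.28) and -0.13 (SE 0.46). Stat2 had 1977 and 1015 in the fasted and 1591 and 1569 in the fed libraries without and 1021 and 1614 fasted against 2557 and 1599.5 fed with tetracycline, with changes of -0.08 (SE 0.35) and -0.66 (SE 0.47).

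Isg15, the ubiquitin-like protein that is attached to other proteins in the antiviral response, came closest to a call with tetracycline. Its counts there were 165 and 309.6 in the fasted and 1055 and 595 in the fed libraries, and the log2 change was -1.80 (adjusted p 0.0973, SE 0.53) in the authors' deposited table. Without tetracycline they were 817 and 216 fasted against 522 and 815 fed, where the 2 fasted libraries spanned both fed ones and the change was -0.37 (SE 0.51). Usp18, the protease that removes ISG15 and dampens interferon receptor signalling, overlapped between the sides in both tables, at 271 and 111 fasted against 163 and 237 fed without and 97.9 and 249 fasted against 314 and 222 fed with tetracycline.

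Of the sensors, Zbp1, which binds nucleic acid in the Z conformation and can start cell death, differed most. It had 785 and 272 in the fasted and 474 and 579 in the fed libraries without tetracycline, a log2 change of 0.01 (SE 0.45). With tetracycline it had 300.3 and 117 fasted against 991 and 477 fed, which the authors' deposited table gives as -1.81 (adjusted p 0.291, SE 0.62). Both fasted values were thus below both fed values with tetracycline, and fasted library 1 was the highest without it. Ifih1, the MDA5 sensor of long double-stranded RNA, had 5071 and 2391 in the fasted and 3449 and 3467 in the fed libraries without and 1719.7 and 3012 fasted against 4095 and 3792 fed with tetracycline. Its change was 0.11 (SE 0.36) and -0.74 (SE 0.44). The kinase Eif2ak2 (PKR), which halts translation on binding double-stranded RNA, had 2518 and 1686 in the fasted and 2257 and 1741 in the fed libraries without and 1585 and 2033 fasted against 2490.0 and 2482 fed with tetracycline. Its changes of 0.07 (SE 0.31) and -0.46 (SE 0.38), like that of Dhx58 with tetracycline, -0.57 (SE 0.44), were small. In all 4 sensor genes both fasted libraries were below both fed ones with tetracycline, as in 16.0% of all genes.

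The oligoadenylate synthetases make the short adenylate chains that switch on the RNA-cutting enzyme RNase L, and Oasl1 is a relative that lacks this activity. All 6 were below 0 with tetracycline, with a median of -1.25, and 4 of 6 had an unadjusted p under 0.05 (51.8% of all genes were below 0, and 3.06% lower at that p). Oasl2 had 3813 and 1209 in the fasted and 2173 and 2482 in the fed libraries without tetracycline and 720.0 and 1388 fasted against 3382 and 2518 fed with it, so that a fasted library held the highest value without the antibiotic and both held the lowest with it. The log2 changes of Oasl2 were 0.11 (SE 0.44) without and -1.49 (adjusted p 0.204, SE 0.48) with tetracycline in the authors' deposited table. In Oasl1, as in Oas1a, both fasted libraries were below both fed ones in each setting (23.1% of all genes without and 16.0% with tetracycline). It had 2263 and 899 in the fasted and 2290.5 and 3317 in the fed libraries without and 721 and 1421 fasted against 3029 and 2331 fed with tetracycline. The authors' deposited table listed it at -0.83 (adjusted p 0.429, SE 0.41) and -1.32 (adjusted p 0.403, SE 0.49).

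Oas1a also separated in both settings, with 1193 and 855 in the fasted and 1438 and 1636 in the fed libraries without and 810.5 and 1068 fasted against 1886 and 1644 fed with tetracycline. Its changes in the authors' deposited table were -0.58 (adjusted p 0.44, SE 0.29) and -0.91 (adjusted p 0.721, SE 0.39). Oas3, the largest synthetase, separated with tetracycline alone, at 216 and 758 fasted against 1713 and 988 fed. Without it, Oas3 stood at 1137 and 374 fasted against 905 and 1013 fed, with overlap. Its change with tetracycline was -1.47 (adjusted p 0.776, SE 0.65) in the authors' deposited table. The least abundant, Oas2, had a change of 0.53 (SE 0.54) without and -1.17 (SE 0.67) with tetracycline, and Oas1g of -0.26 (SE 0.41) and -0.64 (SE 0.56).

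IFIT proteins bind viral RNA and block its translation. All 4 genes were below 0 in both tables, and with tetracycline both fasted libraries lay below both fed ones in each of the 4 (16.0% of all genes). Ifit3b had 61.5 and 44.1 in the fasted and 116 and 115 in the fed libraries without tetracycline, a change of -1.12 (adjusted p 0.269, SE 0.47) in the authors' deposited table. With tetracycline it had 19.7 and 86.7 fasted against 137 and 104 fed. Ifit3, whose printed promoter stretch is the same as that of Ifit3b, had 359 and 174 in the fasted and 403 and 415 in the fed libraries without and 144 and 348 fasted against 533 and 508 fed with tetracycline. Its change with tetracycline was -1.09 (adjusted p 0.931, SE 0.55) in the authors' deposited table. The most abundant of the family, Ifit1, overlapped without tetracycline (1455 and 419 fasted against 948 and 1019 fed) and not with it (211 and 848 fasted against 1532 and 1032 fed). Ifit2 departed from the other 3 within the fasted tetracycline libraries. It was 2.47 times higher in library 1, whereas Ifit1, Ifit3 and Ifit3b were lower there.

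**Figure D3:**
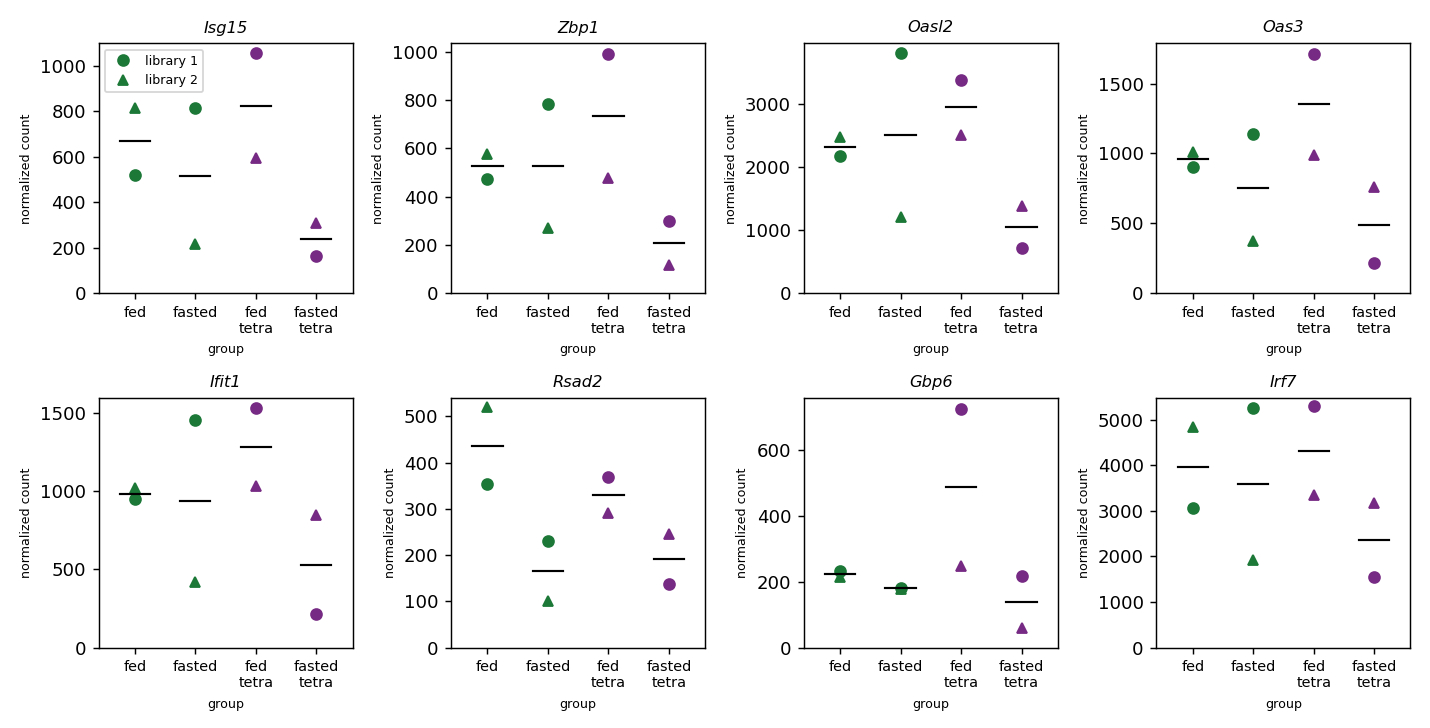
Normalized count (y axis, from 0) of 8 of the genes in each library by group, with a bar at the mean of the 2 libraries; circles are library 1 and triangles library 2 of a side. In Isg15, Zbp1, Oasl2, Oas3 and Ifit1 the fasted libraries span the fed ones without tetracycline and lie below them with it, while Rsad2 is lower in both fasted pairs.

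Of the 11 further effectors, Rsad2 (viperin), which makes a chain-terminating nucleotide against viral polymerases, was closest to a call without tetracycline. It had 229 and 100.02 in the fasted and 353 and 519 in the fed libraries, and the authors' deposited table gave -1.40 (adjusted p 0.0534, SE 0.44). With tetracycline the order was kept, at 137 and 246 fasted against 368 and 291 fed, with a smaller change of -0.79 (SE 0.50). Bst2 (tetherin), which holds budding viruses at the cell surface and also marks plasmacytoid dendritic cells, had 274 and 348 in the fasted and 455 and 685 in the fed libraries without tetracycline, a change of -0.87 (adjusted p 0.207, SE 0.34) in the authors' deposited table. With tetracycline the sides of Bst2 overlapped (435 and 204 fasted against 652 and 403 fed). Siglech, another plasmacytoid marker, was at -0.48 without and -0.57 with tetracycline, and neither value was called. Of the other 2 markers of these cells on the list, Ccr9 was at -0.82 and -1.47, and Tcf4 at 0.30, with both fasted libraries above both fed ones, and -0.18.

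Trim30a, a ubiquitin ligase that restrains Toll-like receptor signalling, had 445 and 289 in the fasted and 474 and 568 in the fed libraries without and 360.4 and 154 fasted against 1197 and 552 fed with tetracycline. Its change was -0.50 (SE 0.34) without and -1.76 (adjusted p 0.298, SE 0.61) with tetracycline in the authors' deposited table. Xaf1, which opposes the cell death inhibitor XIAP, had 418 and 202 in the fasted and 266 and 365 in the fed libraries without tetracycline. With it, Xaf1 stood at 179 and 171 fasted against 495 and 337 fed, the 2 fasted libraries agreeing closely, with a change of -1.25 (adjusted p 0.364, SE 0.45) in the authors' deposited table. Parp14, an ADP-ribosyltransferase, had 4930.5 and 1943 in the fasted and 3243 and 2890.4 in the fed libraries without and 1338 and 2614 fasted against 4698 and 3655 fed with tetracycline. Rtp4, a chaperone of receptors that is induced by interferon, had 793 and 315 in the fasted and 513 and 626 in the fed libraries without and 253 and 395 fasted against 835 and 537 fed with tetracycline. In the authors' deposited table, the changes with tetracycline were -1.08 (adjusted p 0.776, SE 0.48) for Parp14 and -1.09 (adjusted p 0.776, SE 0.48) for Rtp4. Without tetracycline the fasted libraries of Xaf1, Parp14 and Rtp4 lay on either side of the fed ones.

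Ifi35 had 6039 and 2771 in the fasted and 3653 and 5709 in the fed libraries without and 2149 and 3635 fasted against 4745 and 3520.5 fed with tetracycline, with overlap in both and changes of -0.09 (SE 0.39) and -0.52 (SE 0.45). The remaining 4 effectors, Mx1, Mx2, Ifitm3 and Ifi44, had changes with tetracycline from -1.58 (Ifi44) to -0.56 (Mx2). Mx1, whose GTPase blocks influenza virus in some strains but is known to be defective in C57BL/6J mice, was the gene with the largest positive change without tetracycline, 0.69 (SE 0.64), and it came from 1 library, at 125 and 37.6 fasted against 57.6 and 43.2 fed. Ifitm3 was least like the others, with its highest values in fed library 2 and fasted library 1 with tetracycline (896 and 261 fasted against 707 and 1033 fed).

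The guanylate-binding proteins coat and break open vacuoles that hold bacteria or parasites, and they respond above all to interferon gamma. With tetracycline the 5 changes lay between -1.81 and -1.48, the lowest median of any group of the 40 at -1.70, and without it between -0.79 and -0.21. In the same table the median change was -1.76 for 7 T cell and intraepithelial lymphocyte markers and -1.72 for 6 B and plasma cell markers. It was -1.59 for 8 myeloid markers, -1.01 for stroma and endothelium, -0.64 for plasmacytoid dendritic cells and 0.09 for epithelium. The part of these cells in the change of the guanylate-binding proteins was not tested. Gbp6 had 182 and 179 in the fasted and 232 and 213 in the fed libraries without and 218 and 57.8 fasted against 724 and 248 fed with tetracycline, a change of -1.81 (adjusted p 0.676, SE 0.76) in the authors' deposited table. Gbp2 had 95.4 and 122 in the fasted and 176 and 199.9 in the fed libraries without and 178 and 60.5 fasted against 662 and 167 fed with tetracycline. Without tetracycline both fasted values of Gbp2 were lower, -0.79 (adjusted p 0.421, SE 0.39) in the authors' deposited table, and with it 1 fasted value exceeded 1 fed value (-1.80 (adjusted p 0.733, SE 0.78)). Gbp3 had 89.0 and 69.9 in the fasted and 78.4 and 121 in the fed libraries without and 91.3 and 45.4 fasted against 272 and 137 fed with tetracycline, and Gbp7 had 258 and 261 in the fasted and 323 and 279 in the fed libraries and 374 and 116 fasted against 1005 and 358 fed. Their changes with tetracycline in the authors' deposited table were -1.57 (adjusted p 0.586, SE 0.63) and -1.48 (adjusted p 0.884, SE 0.72). In all 5, fed library 1 with tetracycline held the highest value of the 8 libraries and fasted library 2 with tetracycline the lowest.

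The immunity-related GTPases act on the same vacuoles. Irgm2 had 659.5 and 471 in the fasted and 588 and 657 in the fed libraries without and 510.1 and 422 fasted against 1618 and 690.3 fed with tetracycline, and its neighbour Igtp had 681 and 413 in the fasted and 576 and 700.2 in the fed libraries and 447 and 422 fasted against 1247 and 622 fed. With tetracycline their changes were -1.31 (adjusted p 0.613, SE 0.53) and -1.10 (adjusted p 0.776, SE 0.49) in the authors' deposited table, with fed library 1 well above the rest. Irgm1, which restrains the other GTPases and is needed for autophagy, varied little, at 1126 and 1342 fasted against 1751 and 1669 fed without and 1428 and 1245 fasted against 1743 and 1563 fed with tetracycline. Both fasted values of Irgm1 were below both fed ones in each setting, with changes of -0.47 (SE 0.27) and -0.31 (SE 0.37). Iigp1 was near the detection limit, from 0 to 48.0 normalized counts, and its changes had standard errors of 1.53 and 1.31.

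Whether tetracycline altered the fasting change was tested gene by gene as the change with minus the change without tetracycline, over the standard error that both tables give together (a two-sided Wald test, with Benjamini-Hochberg adjustment over 17571 genes). None of the 40 was called, against 0.0228% of all genes, and the adjusted p was 0.999969 for each of the 40. At an unadjusted p under 0.05, 5 of 40 were lower with tetracycline (Oasl2, Zbp1, Xaf1, Parp14 and Oas2) and 0 higher, against 1.05% of all genes in either direction and 0.603% lower. The differences were -1.82 (SE 0.77) for Zbp1, -1.70 (SE 0.86) for Oas2 and -1.60 (SE 0.65) for Oasl2. The median difference was -0.80, beside 0.000334 over all genes, 36 of 40 were below 0 (50% of all genes) and 17 of 40 were at most -1 (8.0%). Rsad2, Bst2, Irgm1 and Iigp1 were the 4 above 0. A fasting change that differed between the settings was therefore not shown for any single gene. These differences take in the change without tetracycline, where fasted libraries disagreed. Without fasted library 1 of that table, 39 of 40 changes there were below 0, in place of 31. The differences were not recomputed with a library left out. Median differences were -1.06 for T cell, -0.53 for myeloid and -0.28 for plasmacytoid dendritic cell markers. For B and plasma cell, stromal and epithelial markers they were 0.32, 1.23 and 0.26. The part of these cells was not tested.

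Genes with the ISRE letters in a promoter window had a median fasting change of -0.34 without and -1.10 with tetracycline (21 genes), and those without the letters -0.14 and -0.97 (9 genes). For the GAS letters the medians were -0.21 and -0.91 with them (11 genes), and -0.34 and -1.25 without (19 genes). The ranges of the groups overlapped widely in both tables.

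Levels with against without tetracycline were set side by side from the rebuilt group means, as log2(mean + 1) centred on the median of 21925 genes. The tables were scaled separately, and no test was made. In fed mice the 40 genes had a median of 0.31, and 6 were higher by at least 1 (8.38% of all genes), namely Gbp2, Gbp5, Gbp6, Gbp7, Mx1 and Iigp1. None was lower by at least 1 (3.4%). Those 6 rest on fed library 1 with tetracycline, since without it 0 of the 40 were higher by at least 1 and the median was 0.00085. In fasted mice the median was -0.42, but -0.0047 without fasted library 1 and -0.77 without fasted library 2 of the table without tetracycline. There 5 were lower by at least 1 (3.92% of all genes), namely Isg15 (-1.19), Zbp1 (-1.40), Oas2 (-1.26), Oasl2 (-1.32) and Ifi44 (-1.05), and Iigp1 alone was higher by at least 1 (3.13%). The count of lower genes went to 0 without fasted library 1 of the table without tetracycline, and to 15 without fasted library 2 of either table. Iigp1 was no longer higher by at least 1 without fasted library 1 of either table. The guanylate-binding proteins had the highest fed median of the groups, 1.08, beside 1.33 for the T cell markers, and without fed library 1 with tetracycline it was 0.21.

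Between the 2 fasted libraries of a table, the groups did not all move the same way. In the fasted tetracycline libraries the summed Oas and Oasl genes were at 2734 in library 1 and 5284 in library 2, and the IFIT genes at 535 and 1347. The guanylate-binding proteins ran the other way, at 964 and 293, as did the T cell markers, at 19157 and 3371, and the B and plasma cell markers, at 2258 and 135. Per gene, all 5 guanylate-binding proteins and all 5 T cell markers were higher in library 1, and all 6 Oas and Oasl genes were lower there. Of all 12130 genes compared between these 2 libraries, 48.5% were higher in library 1, and 13.6% were higher and 8.88% lower there by at least 1 on the log2 scale.

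In the fasted libraries without tetracycline, the Oas and Oasl sum was 9224 in library 1 and 3687 in library 2, and the IFIT sum 1978 and 755. The T cell sum there was 6054 and 11747, again in the opposite order, and the guanylate-binding proteins were level at 669.6 and 702. In both settings, the fasted library with more Oas and IFIT counts was thus the one with fewer T cell and B cell counts. The myeloid sum did not run opposite to the Oas sum. It was 10022 and 7255 in fasted libraries 1 and 2 without tetracycline and 7107 and 7301 with it. Of that sum, Ctss alone held 8370 and 4560 without and 3244 and 6453 with tetracycline. Per gene, 6 of 8 myeloid markers were lower in fasted library 1 without tetracycline, and 7 of 8 were higher there with it. In fed mice with tetracycline, all of these sums were higher in library 1. The T cell sum of the fasted tetracycline library 1 exceeded that of fed library 2 (15416). The Oas, IFIT and guanylate-binding protein sums did not overlap between the sides with tetracycline. Those of the guanylate-binding proteins were 964 and 293 fasted against 2940 and 1017 fed. Of the single genes summed, Oas1g, Gbp2 and Gbp7 did overlap.

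**Figure D4:**
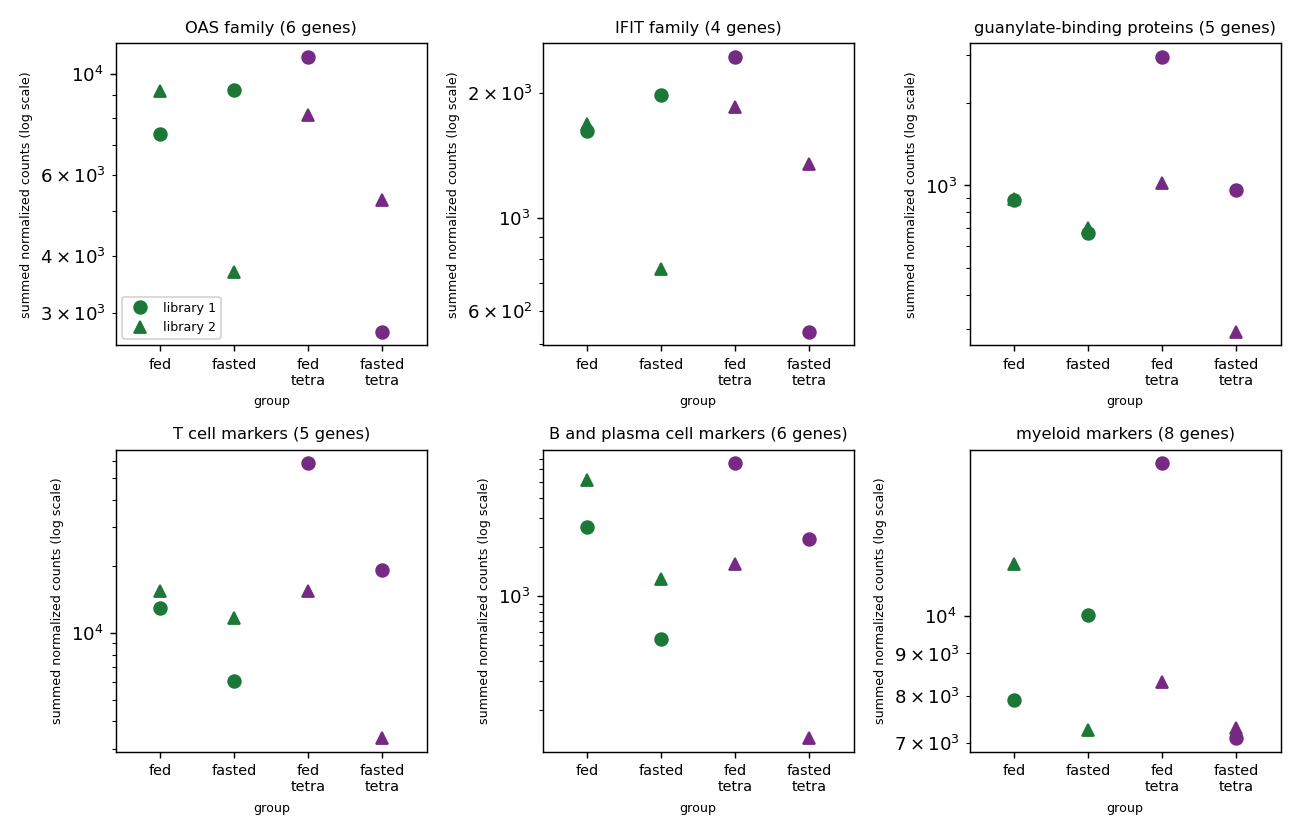
Summed normalized counts (y axis, log scale) in each library by group, for 3 gene families in the upper row and 3 lists of cell type markers in the lower row; circles are library 1 and triangles library 2. With tetracycline the fasted circle lies below the fasted triangle for the OAS and IFIT families and above it for the guanylate-binding proteins, T cell and B cell markers. For the myeloid markers the fasted circle lies slightly below the triangle there.

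Of 91 other names of the interferon pathway, 79 were listed in both tables. Of 10 interferon ligands only Ifng was listed, with means of 1.46 normalized counts without and 8.16 with tetracycline, the latter mostly from fed library 1 (5.76 and 1.38 fasted against 24.4 and 1.08 fed). The type I and type III ligands looked for are not rows of the tables, which shows nothing about their protein. All 6 receptor genes had log2 changes above 0 in both tables, and 0 were called in the authors' deposited tables (1 of 6 and 0 of 6 at an unadjusted p under 0.05, beside 10.8% and 5.34% of all genes). Ifnlr1, the type III receptor subunit that epithelial cells use, had 1332 and 999 in the fasted and 766 and 962 in the fed libraries without and 634 and 1489 fasted against 803 and 845 fed with tetracycline. Ifnar1, a subunit of the type I receptor, had 3707 and 2574 in the fasted and 2195 and 2409 in the fed libraries and 2289 and 4971 fasted against 2111 and 2275 fed, and Ifngr1 changes of 0.16 (SE 0.24) and 0.78 (SE 0.45). For Ifnlr1 and Ifnar1 the fasted libraries overlapped the fed ones or lay above them.

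Of the inhibitors, Socs3, which is better known as a brake on interleukin 6 signalling, rose with fasting without tetracycline, from 394 and 526 to 2502 and 1166, by 1.995 (adjusted p 3.96e-05, SE 0.38) in the authors' deposited table. With tetracycline it was at 501 and 789.7 fasted against 1057 and 599.7 fed, and the difference between the settings, -2.36 (SE 0.63), was not called (adjusted p 0.269, Wald test). Socs1, the brake on interferon receptors, had changes of 0.09 (SE 0.36) and -1.08 (SE 0.80) and was not called.

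Among 38 further interferon-stimulated genes, 3 fell with fasting without tetracycline (1.22% of all genes were called lower) and 1 with it (0.267%), and 0 rose (1.06% and 0.333%). Apol9b, an apolipoprotein L, fell in both. It had 779 and 431 in the fasted and 1499 and 3141 in the fed libraries without and 571 and 827 fasted against 3499.6 and 1659.9 fed with tetracycline, with changes of -1.94 (adjusted p 0.000262, SE 0.40) and -1.89 (adjusted p 0.0447, SE 0.51) in the authors' deposited table. Isg20, an RNA exonuclease, had 92.6 and 120.4 in the fasted and 229 and 424 in the fed libraries without tetracycline (-1.62 (adjusted p 0.00777, SE 0.42) in the authors' deposited table). Ifi27l2a, a mitochondrial protein also abundant in immune cells, had 21.1 and 32.3 in the fasted and 71.5 and 182 in the fed libraries (-2.25 (adjusted p 0.0112, SE 0.60) in the authors' deposited table). Isg20 and Ifi27l2a, like the B cell markers, were lowest with tetracycline in fasted library 2, at 88.1 and 2.75. The chemokine genes Cxcl9 and Cxcl10, which draw in T cells, were scarce, with changes with tetracycline of -2.45 (SE 0.89) and -1.59 (SE 1.02). In all, 4 of 78 pathway genes were called without and 1 of 79 with tetracycline, beside 2.27% and 0.6% of all genes, and the list's medians were -0.10 and -0.69.

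Genes outside these lists that followed the 40 most closely were ranked by Pearson's r with their mean, over the 8 libraries after centring within each table (11684 genes with a mean of at least 50 in both tables and recovered counts). The 10 highest were Serpini1 (r = 0.974), Ptger4, Rel, Trim12a, Septin9, Map7d1, 2010010A06Rik, Snx11, Cwc25 and Mlkl (r = 0.957). Of these, 2010010A06Rik alone was called, with tetracycline, at -2.23 with an adjusted p of 0.0489 (the authors' deposited table). The 40 genes themselves had a median r of 0.803 with their own mean, which contains them, from 0.222 for Ifitm3 to 0.972 for Igtp and Irf1. An r of at least 0.8 was reached by 21 of the 40 and by 2.85% of all genes. These values rest on 8 libraries that differ in depth and in their counts of cell type markers, and they are a description.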

How the data were processed

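Per the submitters' processing notes, Salmon, DESeq2 and the mm10 build were used, with no version or role given. The column names are those that DESeq2 writes, per the file headers. The authors' mean is a signal (counts over size factors, averaged over a table's libraries), their fold change and standard error are on the log2 scale, their test statistic is a score, and their p-values carry a Benjamini-Hochberg adjustment. The authors' log2 fold changes, p-values and means were used as deposited, and a call is an adjusted p under 0.05. The sum of the means was 65863300 without and 65327200 with tetracycline.

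Whole counts were recovered from each mean, since each library adds its whole count times 1 constant. Of the possible sets, the one kept gave the deposited fold change and standard error; for the 40 genes 1 set remained in each table, within 5.9e-06 on the log2 scale. Genes with a mean above 8000 were not decoded. Salmon counts are estimates, so the whole counts are rounded estimates. As libraries cannot be tied to labelled samples, no count model was run on them, and their number limits the precision.

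The test of the difference between the 2 fasting changes used the root of the summed squares of both standard errors and was checked on simulated data. Over all genes its statistic had a robust SD of 0.714, where the test assumes 1. The genes named in full were those with an unadjusted p under 0.05 in either table and the 12 with the highest mean, and of the pathway genes those called and a preset few, of which 1 is not reported here. The 40 genes, the lists and the tests were chosen with earlier results of these data known. Identifiers matched the GENCODE annotation without version for 99.3% and 99.2% of rows. Alternatives were other thresholds, filters, pseudocounts, centring and each library left out. There are 0 further per-sample columns left unused. Python 3.11.15, numpy 2.4.6, scipy 1.17.1, pandas 2.3.3, numba 0.67.0 and matplotlib 3.10.9 were used.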

Additional observations from a re-analysis of the deposited data

How the results depend on the processing

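No paired analysis was possible because the labels give 1 sample per group and the recovered libraries carry no replicate numbers of their own. Of 94 alternative values, 77 stayed on the same side of their threshold or within their limits and 17 did not. The 77 include the level medians of 0.00085 in fed and -0.0047 in fasted mice given below. They are therefore not all close to their main values. At an adjusted p under 0.1 in the authors' deposited tables, 1 of the 40 genes was called without tetracycline (Rsad2) and 1 with it (Isg15), against 0 and 0 at 0.05. The difference of the fasting changes gave 0 calls under each alternative tried. A log2 change of at most -2 was seen in 0 genes in either table, against 3 and 22 at -1. Leaving out each library in turn gave 2 to 10 genes lower by at least 1 without tetracycline (main value 3) and 7 to 28 with it (main value 22). The number below 0 ranged from 17 to 39 without tetracycline (main value 31) and from 39 to 40 with it (main value 40), a choice added after seeing the data. The log2 ratio of the summed counts without tetracycline ranged from -0.70 to 0.25 (main value -0.15) and reversed to 0.25 without fasted library 2, and with tetracycline it ranged from -1.13 to -0.60 (main value -0.87). With pseudocount 5, 0 genes in place of 1 had a fasted level higher by at least 1 with tetracycline. Leaving out each library of a side, also added after seeing the data, gave 0 to 9 genes with a fed level higher by at least 1 with tetracycline (main value 6), 0 to 15 with a fasted level lower by at least 1 (main value 5) 0 to 1 with a fasted level higher by at least 1 (main value 1), and medians from 0.00085 to 0.53 in fed (main value 0.31) and from -0.77 to -0.0047 in fasted mice (main value -0.42). Why these values moved was not tested. With 2 libraries a side, changes below about the deposited standard errors cannot be resolved.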
